A study of Arabidopsis thaliana with 27 samples.

Results

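UVR8 is the receptor with which Arabidopsis thaliana perceives UV-B light, and RUP1 and RUP2 are the WD40-repeat proteins that switch it off again. UVR8 rests as a dimer, comes apart when its tryptophans absorb UV-B, and then binds COP1, a ubiquitin ligase, so that the transcription factor HY5 is stabilised. RUP1 and RUP2 bring the UVR8 dimer back, and their genes are known to be induced by UV-B through HY5, which makes them a negative feedback. These genes were followed by their TAIR identifiers, AT5G63860 for UVR8, AT5G52250 for RUP1 and AT5G23730 for RUP2, as 3 of the 32678 genes counted. All 3 had enough reads for testing, among 21448 genes kept.

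The RNA came from whole seedlings in 9 groups of 3 libraries, 27 in all. Seedlings carried vil1-1 together with cop1-4, cop1-4 alone, vil1-1 alone, or neither (wild-type Col-0), each sampled at ZT6 and at ZT0, and hy5-215 was sampled at ZT0. ZT counts hours from lights on, so seedlings taken at ZT0 had just passed the dark period and those taken at ZT6 were in the light. All groups grew on MS medium at 22 °C under short days (8 h of light, 16 h of darkness). No UV-B treatment is named for any group. VIL1 is a PHD-finger partner of Polycomb repression. The allele cop1-4 is known to be a viable, weak allele and hy5-215 a loss-of-function allele, each in every cell of the plant. One line stands for each genotype, and nothing in the labels says whether the 3 libraries of a group came from separate cultures. If they did not, the p-values reflect technical spread among libraries.

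VIL1 stood at 5.12 to 5.93 CPM (read counts scaled to library size with TMM, group means) in the groups that carry vil1-1 and at 15.5 to 23.1 CPM in the others. COP1 was still read at 20.8 to 48.1 CPM in the cop1-4 groups and HY5 at 14.5 ± 0.111 CPM in hy5-215 (SD, n = 3), so these counts do not check those labels. The hy5-215 libraries were registered apart from the rest, no label gives a batch, and 2.16 to 2.89% of their reads fell outside genes, against 0.586 to 1.12% in the other groups. Batch and genotype cannot be told apart for hy5-215. In bulk RNA of whole seedlings, fewer cells of a type and less RNA per cell cannot be told apart.

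All 3 genes lie on chromosome 5. In the RefSeq annotation of TAIR10.1, UVR8 spans 25554416 to 25559499 on the minus strand with 13 exons, RUP1 spans 21216772 to 21218351 on the plus strand with 1 exon, and RUP2 spans 8005097 to 8006630 on the plus strand with 1 exon. The encoded proteins have 440 residues for UVR8, 385 for RUP1 and 368 for RUP2. RUP1 and RUP2 are paralogs with 224 identical residues among 350 aligned, or 64.0% identity. Their coding sequences share no stretch longer than 16 bases, and none of the 3 genes overlaps another annotated gene. The 300 bases before each annotated start are shown because HY5 is known to bind motifs built on an ACGT core. They are printed 5′ to 3′ on the strand of the gene, from RefSeq TAIR10.1, at chr5:25559500-25559799 for UVR8 (minus strand), chr5:21216472-21216771 for RUP1 (plus strand) and chr5:8004797-8005096 for RUP2 (plus strand), with every ACGT in capitals:
UVR8: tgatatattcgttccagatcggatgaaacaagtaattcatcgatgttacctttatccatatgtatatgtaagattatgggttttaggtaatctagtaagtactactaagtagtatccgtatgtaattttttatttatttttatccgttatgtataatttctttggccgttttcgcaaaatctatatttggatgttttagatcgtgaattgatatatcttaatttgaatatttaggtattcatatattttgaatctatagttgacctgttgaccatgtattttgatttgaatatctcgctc
RUP1: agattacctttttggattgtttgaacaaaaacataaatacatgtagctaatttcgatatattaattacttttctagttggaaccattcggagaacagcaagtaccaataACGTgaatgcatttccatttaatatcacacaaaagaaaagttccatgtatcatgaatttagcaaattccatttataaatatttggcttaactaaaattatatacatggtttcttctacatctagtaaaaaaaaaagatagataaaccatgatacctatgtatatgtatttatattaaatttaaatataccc
RUP2: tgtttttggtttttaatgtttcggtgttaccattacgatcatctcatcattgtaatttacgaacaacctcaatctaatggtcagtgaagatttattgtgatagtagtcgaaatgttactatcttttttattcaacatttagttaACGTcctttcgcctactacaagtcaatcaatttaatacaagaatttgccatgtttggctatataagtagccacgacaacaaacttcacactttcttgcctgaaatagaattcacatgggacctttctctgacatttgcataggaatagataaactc

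The RUP1 window held 1 ACGT, 191 to 188 bases before the start, and the RUP2 window held 1, 156 to 153 bases before it. The UVR8 window held 0. Of 27443 windows of this length before protein-coding genes, 49% held the core, which reads the same on both strands. Neither the G-box CACGTG nor the T/G-box TACGTG, which both contain the core, occurred in any of the 3 windows on either strand, and 7.09% and 7.77% of all windows held them. The evening-element core AAATATCT (5.64% of all windows) and the CCA1-binding AAAAATCT (7.94%), motifs known from clock-controlled genes, were searched on both strands and did not occur in the 3 windows either. A match or its absence describes these letters only.

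Expression levels separated the receptor from its repressors. Per kilobase of exon in Col-0 at ZT0, UVR8 stood at 46.0 CPM, RUP2 at 10.5 and RUP1 at 6.86. UVR8 moved little over the 9 groups, with a highest group mean 1.86 times the lowest, against 14.9 times for RUP1 and 10.8 times for RUP2. UVR8 was also the most even among replicates, with a median coefficient of variation of 2.32%, against 10.5% for RUP1 and 6.38% for RUP2. The reads behind a value were 2039 to 5424 per library for UVR8, 90 to 1333 for RUP1 and 119 to 1731 for RUP2.

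**Figure D1:**
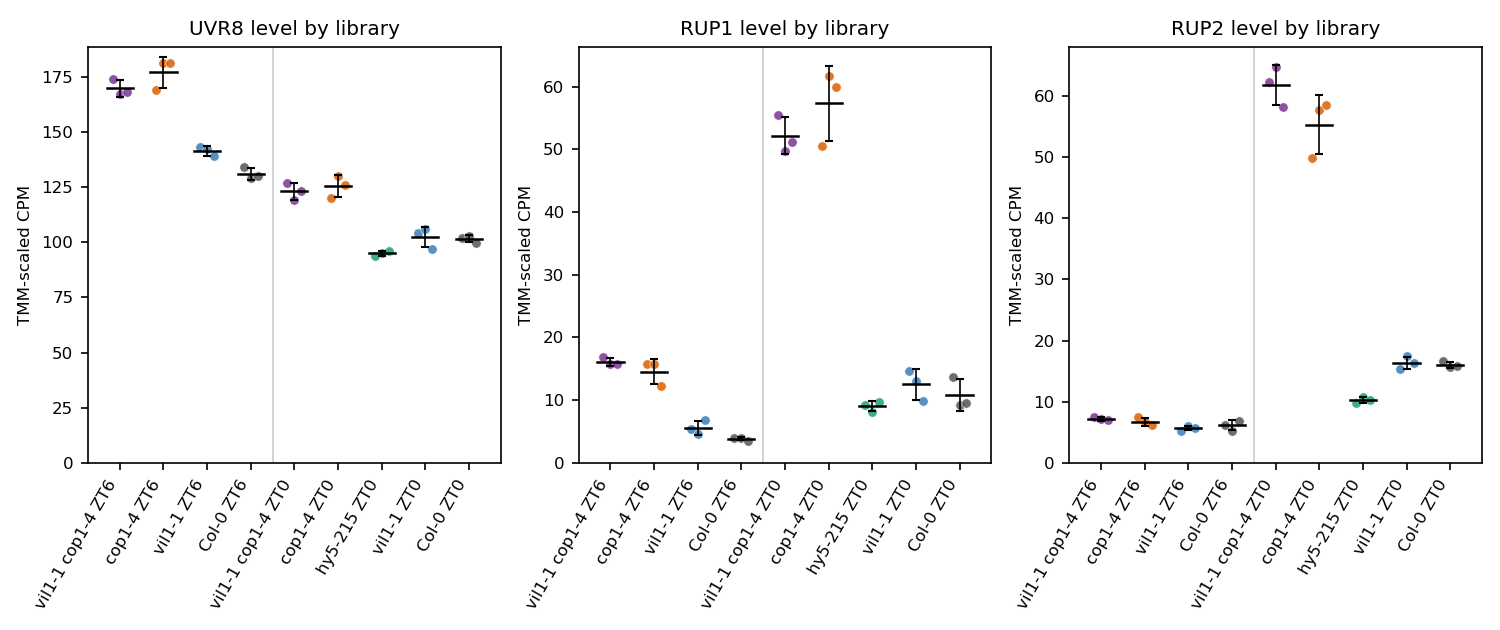
Level of UVR8, RUP1 and RUP2 in each library, as TMM-scaled CPM on a linear axis from 0, by genotype and time; points are libraries, and bars with whiskers are group means ± SD (n = 3). UVR8 stays between 93.8 and 181 CPM, while RUP1 and RUP2 are highest in the cop1-4 and vil1-1 cop1-4 groups at ZT0.

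UVR8, the receptor, read 174, 167 and 168 CPM in vil1-1 cop1-4 at ZT6, 169, 181 and 181 CPM in cop1-4, 143, 142 and 139 CPM in vil1-1 and 134, 129 and 130 CPM in Col-0. At ZT0 it read 127, 119 and 123 CPM in vil1-1 cop1-4, 120, 130 and 126 CPM in cop1-4, 93.8, 95.1 and 96.1 CPM in hy5-215, 104, 106 and 97 CPM in vil1-1 and 102, 103 and 99.7 CPM in Col-0. Within every line with both times, each ZT6 library lay above each ZT0 library. By group mean, cop1-4 and vil1-1 cop1-4 at ZT6 (177 ± 6.83 and 170 ± 3.94 CPM, SD, n = 3) led and overlapped. They were followed without overlap by vil1-1 at ZT6 (142 ± 2.09), then by Col-0 at ZT6 (131 ± 2.83), cop1-4 at ZT0 (125 ± 4.90) and vil1-1 cop1-4 at ZT0 (123 ± 4.14), each overlapping the next. Below these, vil1-1 and Col-0 at ZT0 (102 ± 4.78 and 102 ± 1.60) overlapped. The hy5-215 group was lowest (93.8 to 96.1 CPM), with no library within the range of the group above it. This order is that of TMM-scaled CPM. Without TMM, UVR8 in hy5-215 (102 CPM) lay above cop1-4 (98.8 CPM) and vil1-1 cop1-4 (98.4 CPM) at ZT0. At ZT6 the means without TMM stood closer together, at 165 CPM in cop1-4, 161 in vil1-1 cop1-4, 157 in vil1-1 and 145 in Col-0.

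RUP1 read 16.9, 15.8 and 15.7 CPM in vil1-1 cop1-4 at ZT6, 15.7, 15.8 and 12.2 CPM in cop1-4, 5.40, 4.56 and 6.83 CPM in vil1-1 and 3.98, 3.98 and 3.55 CPM in Col-0. At ZT0 it read 55.5, 49.8 and 51.2 CPM in vil1-1 cop1-4, 50.5, 61.6 and 59.9 CPM in cop1-4, 9.28, 8.16 and 9.75 CPM in hy5-215, 14.7, 13.1 and 9.81 CPM in vil1-1 and 13.7, 9.17 and 9.60 CPM in Col-0. The lines with cop1-4 at ZT0 stood clear of all other groups. In the order of means, 5 groups overlapped each with the next: vil1-1 cop1-4 at ZT6 (16.1 ± 0.679), cop1-4 at ZT6 (14.6 ± 2.06), vil1-1 at ZT0 (12.5 ± 2.48), Col-0 at ZT0 (10.8 ± 2.53) and hy5-215 (9.07 ± 0.816). RUP1 in cop1-4 at ZT6 thus overlapped the range of Col-0 at ZT0, and Col-0 at ZT6 was lowest (3.84 ± 0.247).

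RUP2 read 7.45, 7.13 and 6.96 CPM in vil1-1 cop1-4 at ZT6, 7.43, 6.61 and 6.16 CPM in cop1-4, 5.28, 6.06 and 5.78 CPM in vil1-1 and 6.24, 5.26 and 6.88 CPM in Col-0. At ZT0 it read 62.2, 64.7 and 58.2 CPM in vil1-1 cop1-4, 49.8, 57.6 and 58.5 CPM in cop1-4, 9.82, 10.8 and 10.3 CPM in hy5-215, 15.4, 17.4 and 16.3 CPM in vil1-1 and 16.6, 15.6 and 15.9 CPM in Col-0. The order was vil1-1 cop1-4 and cop1-4 at ZT0 (61.7 ± 3.26 and 55.3 ± 4.80, overlapping), then vil1-1 and Col-0 at ZT0 (16.4 ± 1.04 and 16.0 ± 0.492, overlapping), then hy5-215 (10.3 ± 0.479). All 4 groups at ZT6 lay below these, at 5.71 to 7.18 CPM, each overlapping the next in order.

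The time of day was compared first. UVR8 was higher and both repressors were lower at ZT6 than at ZT0 in each of the 4 lines sampled at both times. In Col-0, UVR8 was 1.29-fold higher at ZT6 (log2 0.37 ± 0.05 SE, adjusted p = 5.4e-09). RUP1 was 2.84-fold lower (log2 -1.50 ± 0.18, adjusted p = 7.4e-08) and RUP2 was 2.59-fold lower (log2 -1.38 ± 0.09, adjusted p = 2.7e-17). Every adjusted p comes from edgeR's quasi-likelihood test with Benjamini-Hochberg adjustment over all 21448 genes of a comparison, with 0.05 as the threshold for a call. All 3 genes were thus called, where 70.9% of all genes tested were called, 36.9% as higher and 34.0% as lower. With so many genes called, the calls of these 3 do not set them apart. In vil1-1, where 68.9% of genes were called, UVR8 was higher at ZT6 by log2 0.47 ± 0.05, and RUP1 and RUP2 fell by 1.18 ± 0.17 and 1.51 ± 0.09 on the log2 scale.

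In the lines with cop1-4, RUP2 showed a larger day change than in Col-0. In cop1-4, UVR8 was 1.41-fold higher at ZT6 (log2 0.50 ± 0.05, adjusted p = 3.3e-12), RUP1 was 3.94-fold lower (log2 -1.98 ± 0.14, adjusted p = 9e-12) and RUP2 was 8.22-fold lower (log2 -3.04 ± 0.09, adjusted p = 1.2e-29), where 63.5% of genes were called, 30.2% as higher and 33.4% as lower. The vil1-1 cop1-4 line gave log2 0.46 ± 0.05, -1.69 ± 0.13 and -3.10 ± 0.09 for UVR8, RUP1 and RUP2, with 64.3% of genes called. The difference between the day changes was tested itself. For RUP2 the day change in cop1-4 minus that in Col-0 was log2 -1.66 ± 0.13 (95% interval -1.93 to -1.40, adjusted p = 4.1e-14), and in vil1-1 cop1-4 minus that in Col-0 it was -1.73 ± 0.13 (adjusted p = 5.1e-15). Of all genes, 46.6% were called in the cop1-4 test of a difference, 20.9% as higher and 25.7% as lower, and 49.6% in the vil1-1 cop1-4 test.

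For RUP1 the same difference did not pass, at log2 -0.47 ± 0.23 in cop1-4 (95% interval -0.95 to 0.01, adjusted p = 0.1) and -0.19 in vil1-1 cop1-4 (adjusted p = 0.54). Without the first Col-0 library at ZT0, whose 13.7 CPM lay above the other 2 libraries of its group, the cop1-4 value became -0.68 (adjusted p = 0.0069). For UVR8 it was 0.13 ± 0.07 in cop1-4 (95% interval -0.01 to 0.27, adjusted p = 0.12). That value passed under DESeq2 size factors (0.20, adjusted p = 0.016), and also without any single one of the 6 cop1-4 libraries, with values up to 0.25. Without TMM, UVR8 read 165 CPM at ZT6 and 98.8 CPM at ZT0 in cop1-4, against 145 and 120 CPM in Col-0. The size of this UVR8 difference thus depends on the scaling, which the 95% interval does not cover. In vil1-1, none of the 3 genes had a day change past the threshold of difference from Col-0 (log2 0.10, 0.32 and -0.14 for UVR8, RUP1 and RUP2, adjusted p = 0.55, 0.64 and 0.73 in edgeR), where 2.20% of genes were called. Within cop1-4, adding vil1-1 left no day change past the threshold of difference either (log2 -0.04, 0.29 and -0.07, adjusted p = 0.88, 0.55 and 0.89 in edgeR), where 4.48% of genes were called.

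**Figure D2:**
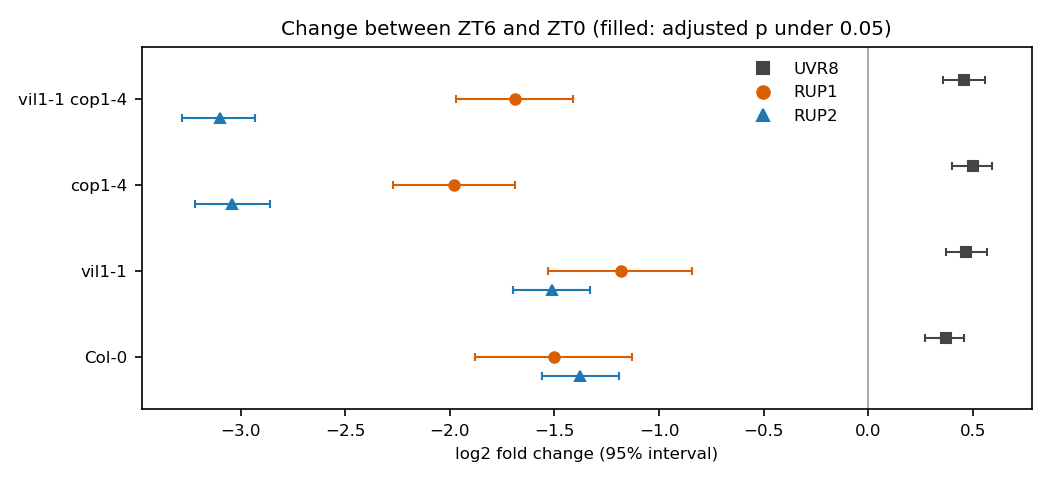
Day change, ZT6 over ZT0, of each gene in each of the 4 lines sampled at both times, as log2 fold change with its 95% interval (edgeR, 3 libraries a group). UVR8 lies above 0 and both repressors below it in every line, and RUP2 in the cop1-4 lines lies near -3, against -1.38 in Col-0.

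The effect of cop1-4 was compared with Col-0 at each time, since COP1 is the partner through which UVR8 signals and part of the ligase known to act on RUP1 and RUP2 proteins. At ZT0 all 3 transcripts were higher in cop1-4 on the TMM scale. In this comparison 68.5% of genes were called in either direction, 34.7% as higher and 33.9% as lower. UVR8 was 1.24-fold higher (log2 0.30 ± 0.05, adjusted p = 4.9e-07), RUP1 5.27-fold (log2 2.40 ± 0.14, adjusted p = 2.4e-13) and RUP2 3.45-fold (log2 1.79 ± 0.08, adjusted p = 1.3e-23). On that scale, the lowest cop1-4 library stood above the highest Col-0 library for each gene. By library size without TMM, UVR8 at ZT0 read 98.8 CPM in cop1-4 and 120 CPM in Col-0. The side of UVR8 at ZT0 thus depends on the scaling. RUP2 stayed higher in cop1-4 without TMM, at 43.5 CPM against 18.9 CPM in Col-0.

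At ZT6 the repressors parted. UVR8 was 1.35-fold higher in cop1-4 (log2 0.43 ± 0.05, adjusted p = 1e-10) and RUP1 was 3.80-fold higher (log2 1.93 ± 0.18, adjusted p = 1.3e-09). Without TMM, UVR8 at ZT6 read 165 CPM in cop1-4 and 145 CPM in Col-0, the same side with a smaller gap. RUP2 was not past the threshold, at 1.09-fold (log2 0.12 ± 0.11, 95% interval -0.09 to 0.34, adjusted p = 0.32), and its cop1-4 and Col-0 libraries overlapped. So 2 of the 3 genes were called as higher, where 66.6% of all genes were called, 32.6% as higher and 34.0% as lower.

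**Figure D3:**
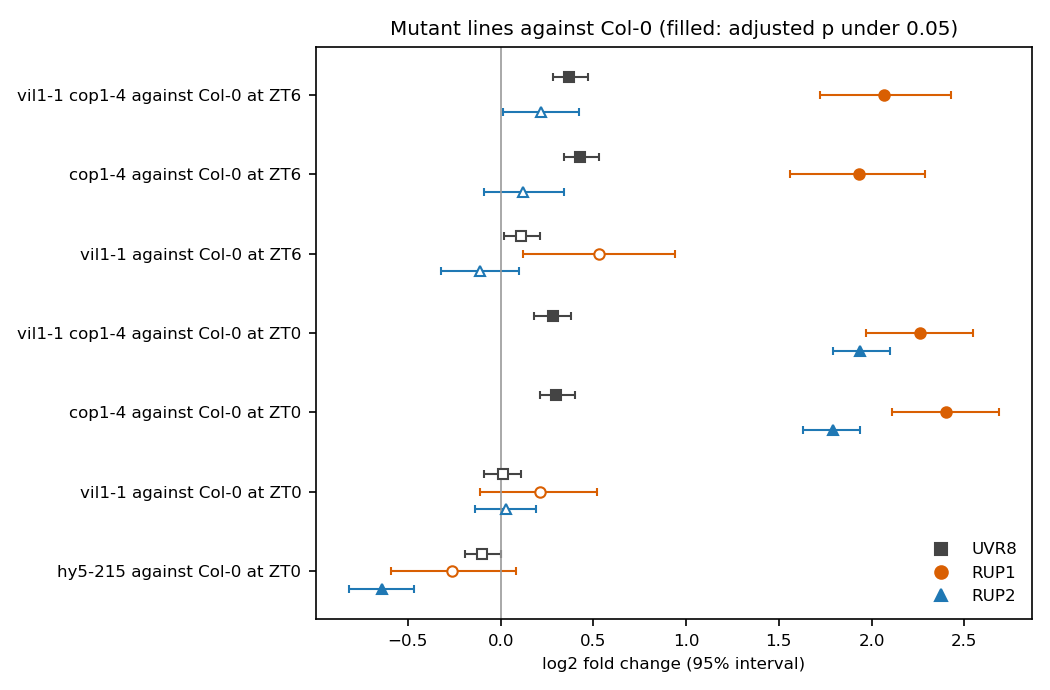
Log2 fold change of UVR8, RUP1 and RUP2 in each mutant line over Col-0 at the same time, with 95% intervals (edgeR, 3 libraries a group). RUP1 in the cop1-4 lines lies near 2 at both times, whereas RUP2 lies near 2 at ZT0 and between 0 and 0.5 at ZT6.

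Tissue markers moved with cop1-4. The summed level of 4 green-tissue genes, all of them read, was 35600 to 36500 CPM in cop1-4 at ZT6, against 21600 to 22100 in Col-0, and 59300 to 68200 CPM in cop1-4 at ZT0, against 19600 to 20400 in Col-0. RBCS1A and RCA, of photosynthetic carbon fixation, made up most of this sum. LHCB2.1, a light-harvesting protein, went the other way at ZT6, at 1290 ± 82.8 CPM in cop1-4 against 2020 ± 51.6 in Col-0 (SD, n = 3). At ZT0 LHCB2.1 stood at 2470 ± 288 CPM in cop1-4 against 2700 ± 73.8 in Col-0, a gap within the cop1-4 SD. The sum of 5 root genes, all read, was 1720 to 2070 CPM in cop1-4 at ZT6, against 5070 to 5570 in Col-0, and 1200 to 1430 CPM in cop1-4 at ZT0, against 2450 to 2690 in Col-0. PYK10, a beta-glucosidase, made up nearly all of it, and SCR, a factor of the root endodermis, went the other way, at 34.1 ± 0.797 CPM in cop1-4 against 27.7 ± 2.08 in Col-0 at ZT6 and 92.6 ± 4.26 CPM in cop1-4 against 44.4 ± 0.542 in Col-0 at ZT0. Both sums kept these sides in vil1-1 cop1-4, at 35100 to 40800 and 65200 to 67500 CPM for green tissue and 1780 to 2140 and 1620 to 2040 CPM for root at ZT6 and ZT0. Their part in the results for UVR8, RUP1 and RUP2 was not tested. The 2 shoot-meristem genes summed to 1.72 to 5.88 CPM in all groups, and of these CLV3 had 0 reads in cop1-4 at ZT6.

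The double mutant vil1-1 cop1-4 was compared with Col-0 in the same way. At ZT0, where 68.5% of genes were called, UVR8, RUP1 and RUP2 were higher by log2 0.28 ± 0.05, 2.26 ± 0.14 and 1.94 ± 0.08 (adjusted p = 2.5e-06, 8.1e-13 and 5.7e-25). Without TMM, UVR8 at ZT0 read 98.4 CPM in vil1-1 cop1-4 and 120 CPM in Col-0, so its side depends on the scaling. At ZT6, where 65.6% of genes were called, UVR8 was higher by log2 0.37 ± 0.05 (adjusted p = 4.5e-09) and RUP1 by 2.07 ± 0.17 (adjusted p = 1.8e-10). UVR8 at ZT6 without TMM read 161 CPM in vil1-1 cop1-4 and 145 CPM in Col-0, the same side with a smaller gap. RUP2 at ZT6 missed the threshold at log2 0.22 ± 0.10 (95% interval 0.01 to 0.42, adjusted p = 0.058 in edgeR), although its ranges did not overlap. It passed in DESeq2 (0.25, adjusted p = 0.038), under DESeq2 size factors (0.25, adjusted p = 0.028), without the third Col-0 library at ZT6 (0.30, adjusted p = 0.018) and without the third vil1-1 cop1-4 library at ZT6 (0.27, adjusted p = 0.04).

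Adding vil1-1 to cop1-4 was then compared with cop1-4 alone. None of the 3 genes was called at either time, where edgeR called 17.3% of all genes at ZT0 and 17.8% at ZT6. The 95% intervals at ZT0 were log2 -0.12 to 0.07 for UVR8, -0.40 to 0.12 for RUP1 and 0.01 to 0.30 for RUP2. At ZT6 they were -0.16 to 0.03, -0.16 to 0.46 and -0.12 to 0.31. The other way round, vil1-1 cop1-4 exceeded vil1-1 in all 3 genes at both times, where 68.0% and 59.0% of genes were called. RUP2 at ZT6 was among these calls, at 1.25-fold (log2 0.33 ± 0.10, adjusted p = 0.0061). UVR8 at ZT0 was among them too, but without TMM it read 98.4 CPM in vil1-1 cop1-4 and 120 CPM in vil1-1. At ZT6, UVR8 without TMM read 161 CPM in vil1-1 cop1-4 and 157 CPM in vil1-1, so the size of that difference depends on the scaling.

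In vil1-1 against Col-0, 0 of the 3 genes was called at either time, where edgeR called 9.97% of genes at ZT0 and 21.0% at ZT6. At ZT0 the 95% intervals were log2 -0.09 to 0.11 for UVR8, -0.11 to 0.52 for RUP1 and -0.14 to 0.19 for RUP2. At ZT6 the vil1-1 and Col-0 libraries of UVR8 and RUP1 did not overlap, vil1-1 being the higher. UVR8 differed by log2 0.11 ± 0.05 (95% interval 0.02 to 0.21, adjusted p = 0.087 in edgeR) and RUP1 by 0.53 ± 0.20, or 1.44-fold (0.12 to 0.94, adjusted p = 0.059). Both passed in a fit of these 2 groups alone (adjusted p = 0.026 and 0.0049) and in DESeq2 (0.037 and 0.0056), and RUP1 also without the second vil1-1 library at ZT6 (log2 0.67, adjusted p = 0.026). RUP2 differed by -0.11 ± 0.10 (-0.32 to 0.10, adjusted p = 0.51). The summed level of 3 seed-storage and late-embryo genes, all read, was 8.04 to 17.4 CPM in vil1-1 at ZT6, against 0.928 to 1.75 in Col-0, and 9.02 to 19.9 CPM in vil1-1 at ZT0, against 1.01 to 2.90 in Col-0, and its part in these values was not tested. The test of whether cop1-4 acted differently in vil1-1 than in Col-0 called none of the 3 genes in edgeR, where 7.11% and 15.3% of genes were called at ZT0 and ZT6. For UVR8 at ZT6 it gave log2 -0.17 ± 0.07 (adjusted p = 0.071), which passed in DESeq2 (-0.20, adjusted p = 0.017).

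HY5 is the transcription factor through which UV-B is known to induce RUP1 and RUP2, and hy5-215 was compared with Col-0 at ZT0. RUP2 was 1.56-fold lower in hy5-215 (log2 -0.64 ± 0.09, adjusted p = 9.7e-08), with no overlap between the groups. It was 1 of the 3 genes called, where 39.0% of all genes were called, 20.0% as higher and 19.0% as lower. RUP1 did not pass, at log2 -0.26 ± 0.16 (95% interval -0.59 to 0.08, adjusted p = 0.22), and its ranges overlapped. Leaving out 1 library at a time gave -0.36 to -0.05, the value nearest 0 being the one without the first Col-0 library. UVR8 did not pass either, at -0.10 ± 0.05 (-0.19 to 0.00, adjusted p = 0.11), though every hy5-215 library lay below every Col-0 library. The same 3 seed genes summed to 101 to 111 CPM in hy5-215, against 1.01 to 2.90 in Col-0. Their part in these differences was not tested. Set against hy5-215, cop1-4 at ZT0 was higher by log2 0.40 ± 0.05 for UVR8, 2.66 ± 0.15 for RUP1 and 2.43 ± 0.08 for RUP2 (adjusted p = 1e-09, 4.6e-14 and 1.3e-27), where 73.2% of genes were called. Without TMM, UVR8 at ZT0 read 98.8 CPM in cop1-4 and 102 CPM in hy5-215, so that side too depends on the scaling.

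The balance among the 3 transcripts was described by ratios within each library, chosen after their levels were seen. RUP1 reads over RUP2 reads stood at 1.98 to 2.40 in cop1-4 at ZT6, against 0.516 to 0.756 in Col-0, which is 3.43-fold higher in cop1-4. At ZT0 the ratio was 1.01 to 1.07 in cop1-4, against 0.587 to 0.829 in Col-0. The double mutant had means of 2.25 ± 0.029 at ZT6 and 0.847 ± 0.0672 at ZT0 (SD, n = 3). With exon lengths of 1580 bases for RUP1 and 1534 for RUP2, RUP1 was the more abundant of the repressors in the cop1-4 lines at ZT6, and RUP2 in Col-0 at both times.

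The summed repressor reads per kilobase, divided by UVR8 reads per kilobase, gave the level of repressor transcript per receptor transcript. This was 0.171 ± 0.0253 in cop1-4 at ZT6, against 0.108 ± 0.00599 in Col-0 at ZT6, and 1.27 ± 0.0801 in cop1-4 at ZT0, against 0.377 ± 0.0398 in Col-0 at ZT0 (SD, n = 3). In both lines with cop1-4 at ZT0 the repressor transcripts thus outnumbered the receptor transcript on this scale, and in all other groups UVR8 was the higher. In hy5-215 the value was 0.289 ± 0.00639 and in vil1-1 at ZT0 it was 0.401 ± 0.0153. Exact two-sided permutation tests of 10 such differences gave p = 0.1 (adjusted 0.125) wherever the groups did not overlap, which is the smallest p that 3 against 3 libraries allow. Only the RUP1 to RUP2 ratio in hy5-215 against Col-0 (exact p = 0.2) and in Col-0 at ZT6 against ZT0 (exact p = 0.7) stood above that.

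**Figure D4:**
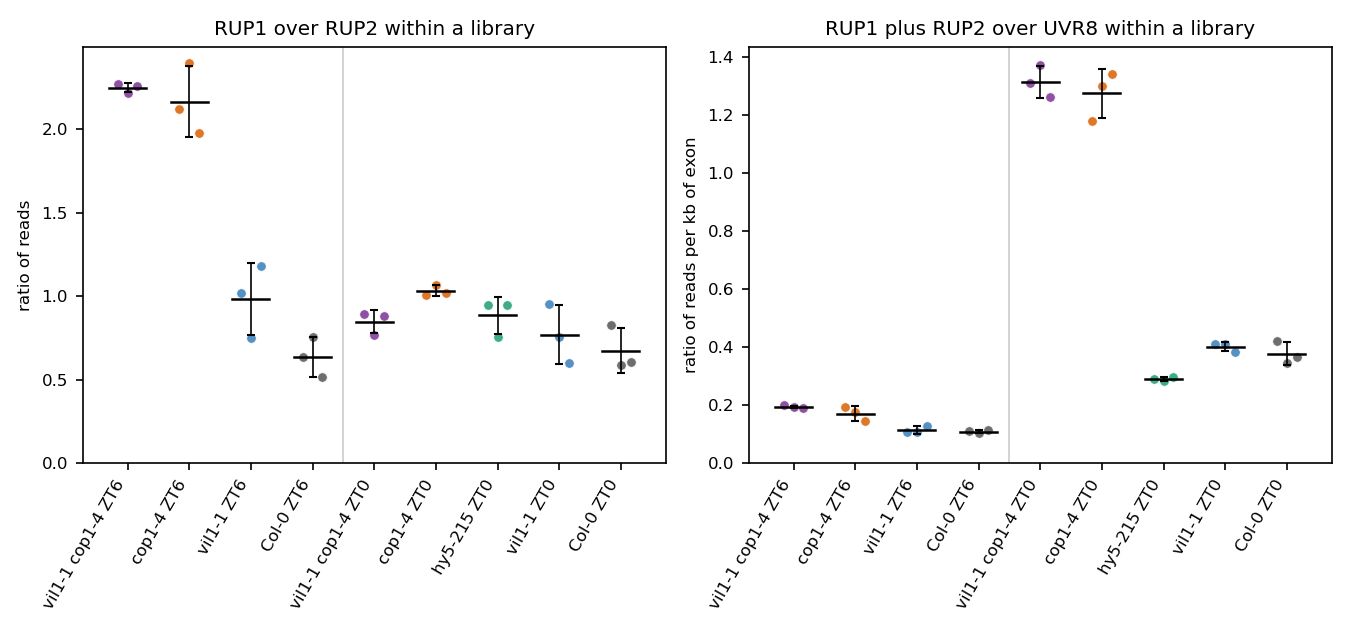
Ratios within each library by genotype and time: RUP1 reads over RUP2 reads, and summed RUP1 and RUP2 reads per kilobase over UVR8 reads per kilobase; points are libraries, and bars with whiskers are group means ± SD (n = 3). The first ratio is highest in the cop1-4 lines at ZT6, and the second exceeds 1 in the cop1-4 lines at ZT0.

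Across the 9 group means of log2 CPM, RUP1 and RUP2 followed each other with a Pearson r of 0.87, whereas UVR8 gave 0.04 with RUP1 and -0.37 with RUP2. In each point both genes are read from the same 3 libraries, so these values are a description. Among 4241 genes with a symbol, a mean of at least 5 CPM and a range of at least 1 on the log2 scale, RUP2 was the 573rd most like RUP1 and RUP1 the 504th most like RUP2. The genes most like RUP2 were TZP (r = 0.999), a zinc-finger light-signalling factor, LARP1a (0.997), an RNA-binding protein, SSI2 (0.996), a fatty-acid desaturase, SP1L4 (0.994) and PDV2 (0.993), a plastid-division protein. Those most like RUP1 were SLD1 (0.997), a sphingolipid desaturase, CYP71B13 (0.994), bHLH104 (0.993), CPR1 (0.993), an F-box protein, and EXGT-A3 (0.992), a cell-wall xyloglucan enzyme. UVR8 was matched by ADF1 (0.986), an actin-depolymerising factor, NAC069 (0.984), WCRKC1 (0.982), a thioredoxin, PGL34 (0.981), a plastoglobule protein, and EP1 (0.981).

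The signalling partners and regulators around the receptor were described through 29 genes, all tested. In cop1-4 at ZT0, 18 were higher, 5 lower and 6 not past the threshold, with a median log2 fold change of 0.43, against -0.00 over all genes, of which 34.7% were higher and 33.9% lower. SPA4 and SPA3, which form the ligase complex with COP1, were higher by log2 1.86 ± 0.07 and 1.50 ± 0.05 (adjusted p = 1.5e-26 and 7.4e-27). BBX25 and BBX24, B-box proteins known to act against HY5, were higher by 0.93 and 0.84. HFR1, an inhibitor of PIF factors, fell by 1.30 on the log2 scale, PIF4, a growth-promoting factor, by 1.02, BIM1, a brassinosteroid-signalling partner of UVR8, by 0.98 and BES1, another, by 0.57. COP1 itself was higher by 0.48 (adjusted p = 2.2e-07), and HY5 was not past the threshold at 0.03 (adjusted p = 0.78). The TMM factors were 0.770 to 0.813 in cop1-4 at ZT0 and 1.165 to 1.192 in Col-0 at ZT0. These values for COP1 and HY5, and the median of 0.43, depend on that scaling.

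At ZT6, 19 of the 29 were higher in cop1-4, 8 lower and 2 not past the threshold, with a median of 0.29, against -0.02 over all genes, of which 32.6% were higher and 34.0% lower. MYB73 and MYB77, known to bind UVR8, were higher by log2 1.63 and 1.27, PIF5 by 0.72 and SPA3 by 0.83. COP1 fell by 0.59 on the log2 scale (adjusted p = 1e-08) and HY5 by 0.46 (adjusted p = 4.2e-05), with BIM1 and DDB1B each lower by 0.35. The TMM factors were 0.913 to 0.947 in cop1-4 at ZT6 and 1.090 to 1.122 in Col-0 at ZT6. The median of 0.29 and the sizes of these falls depend on that scaling. The day change of COP1 differed between cop1-4 and Col-0 by log2 -1.06 ± 0.11 (adjusted p = 2.7e-11) and that of SPA4 by -1.33 ± 0.10 (adjusted p = 2.2e-14), set beside -1.66 for RUP2. In that test of a difference, 8 of the 29 were higher, 13 lower and 8 not past the threshold, where 20.9% of all genes were higher and 25.7% lower.

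In Col-0, 4 of the 29 were higher at ZT6 than at ZT0 and 16 were lower, with 9 not past the threshold, where 36.9% of all genes were higher and 34.0% lower. Among the lower ones, as RUP1 and RUP2 were, stood BBX25 (log2 -3.68), HYH, the homolog of HY5 (log2 -2.98), PIF5 (log2 -1.54) and SPA3 (log2 -1.46). PIF4 (0.65), DET1 (0.30), CO (1.51) and MYB13 (0.38) were higher, as UVR8 was. In hy5-215, 6 of the 29 were higher, 15 lower and 8 not past the threshold, with a median of -0.14, against 0.00 over all genes, of which 20.0% were higher and 19.0% lower. HYH, at 13.2 ± 2.21 CPM in hy5-215 against 35.3 ± 1.82 CPM in Col-0 (SD, n = 3), was 2.68-fold lower (adjusted p = 8.8e-18). SPA1, SPA3 and BES1 were also lower, by log2 -0.39 to -0.41, whereas BIM1 (0.57), PIF4 (0.50), MYB73 (0.31) and CRY1 (0.15), a blue-light receptor, were higher. In vil1-1, 2 of the 29 were higher and 0 lower at ZT0, and 5 were higher and 1 lower at ZT6, where 9.97% and 21.0% of all genes were called at ZT0 and ZT6.

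**Figure D5:**
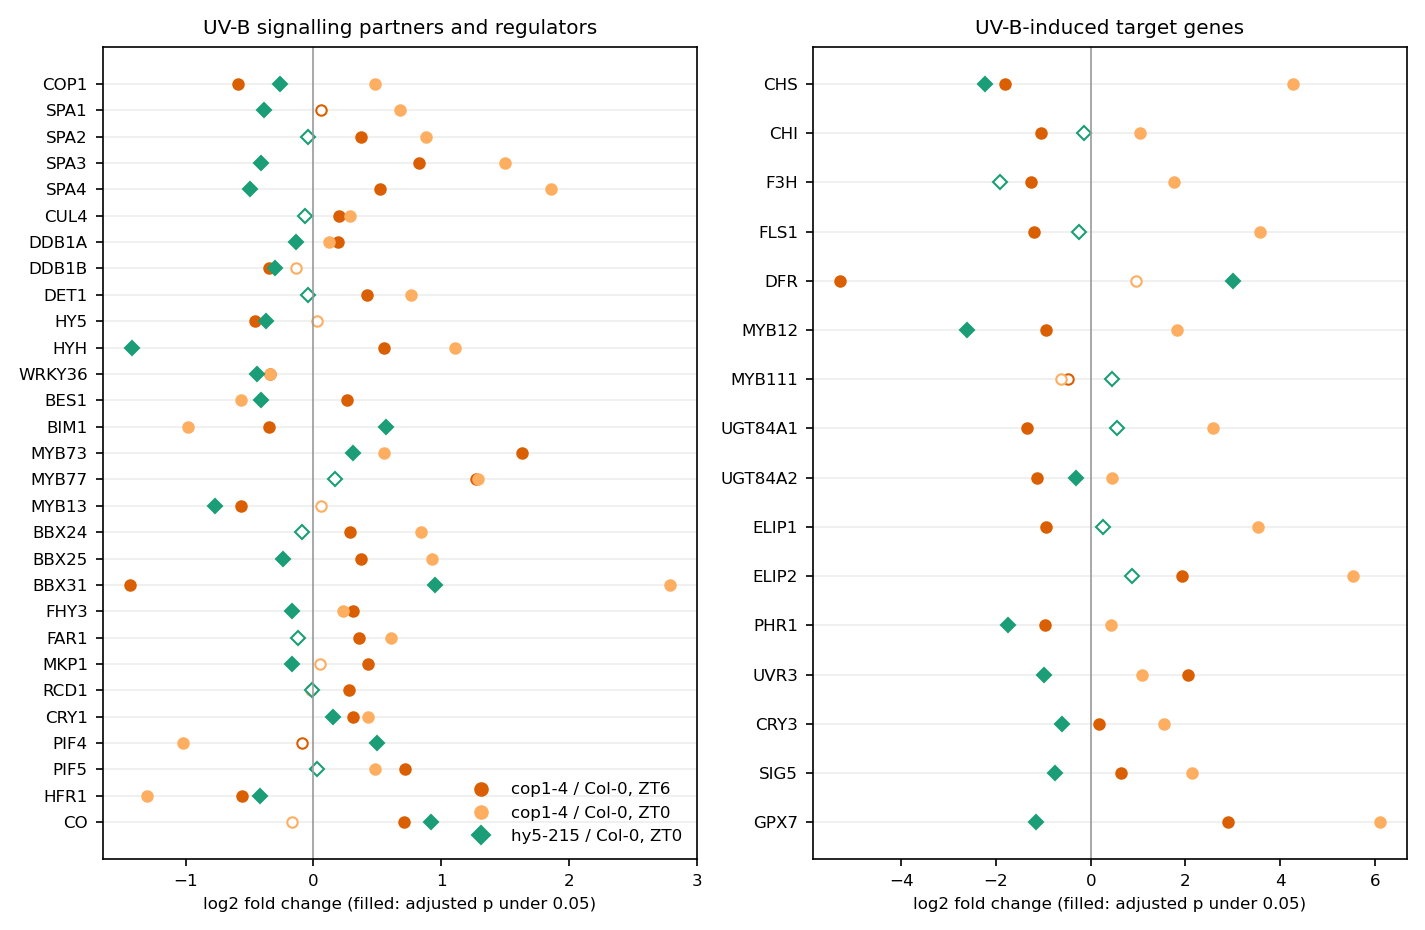
Log2 fold changes of the 29 partners and regulators and the 16 UV-B target genes in cop1-4 over Col-0 at ZT6 and at ZT0 and in hy5-215 over Col-0 at ZT0, with filled symbols past the threshold (edgeR, 3 libraries a group). The target genes in cop1-4 lie mostly above 0 at ZT0 and mostly below 0 at ZT6.

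The output of the pathway was described through 16 genes known to be induced by UV-B, all tested, in seedlings for which no UV-B treatment is named. In cop1-4 at ZT0, 14 were higher, 0 lower and 2 not past the threshold, with a median log2 fold change of 1.79, against -0.00 over all genes, of which 34.7% were higher and 33.9% lower. CHS, chalcone synthase, stood at 219 ± 6.71 CPM in cop1-4, against 11.3 ± 2.39 CPM in Col-0 (SD, n = 3; adjusted p = 4.9e-14). SIG5, a plastid sigma factor, was 4.41-fold higher, and GPX7, a glutathione peroxidase, stood at 75.1 ± 3.39 CPM in cop1-4, against 1.10 ± 0.41 CPM in Col-0. ELIP2, an early light-induced protein, was higher by log2 5.54 and CRY3, a photolyase relative, by 1.54.

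At ZT6 the targets divided in cop1-4, with 5 higher, 10 lower and 1 not past the threshold and a median of -0.96, against -0.02 over all genes, of which 32.6% were higher and 34.0% lower. CHS stood at 117 ± 29.9 CPM in cop1-4, against 412 ± 10.5 CPM in Col-0 (SD, n = 3; log2 -1.82, adjusted p = 2.4e-09). DFR, CHI and UGT84A2, enzymes of flavonoid and sinapate metabolism, fell by 5.30, 1.04 and 1.13 on the log2 scale. DFR had 15 reads in all in cop1-4 at ZT6, against 837 in Col-0. The higher ones included GPX7 (log2 2.89), UVR3, a photolyase (2.05), ELIP2 (1.92) and SIG5 (0.64). In the test of the day change in cop1-4 against that in Col-0, 1 target was higher, 14 were lower and 1 was not past the threshold, with a median of -2.89, against -0.02 over all genes, of which 20.9% were higher and 25.7% lower. CHS gave -6.09 ± 0.24 there (adjusted p = 5.5e-14), and SIG5 gave -1.50 ± 0.10 (adjusted p = 3.9e-16), set beside -1.66 for RUP2.

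In Col-0, 13 of the 16 targets were higher at ZT6 than at ZT0 and 3 were lower, where 36.9% of all genes were higher and 34.0% lower. RUP1 and RUP2, which are themselves UV-B-induced genes, had the direction of the lower 3, which were SIG5 (log2 -2.20), UVR3 (-2.52) and CRY3 (-0.28). CHS (5.18), MYB12, a flavonol regulator (3.37), UGT84A2 (2.23) and DFR (7.42) were among the higher ones. DFR had only 4 reads in all in Col-0 at ZT0, so the size of its change is uncertain. In hy5-215, 1 target was higher, 8 were lower and 7 were not past the threshold, with a median of -0.46, against 0.00 over all genes, of which 20.0% were higher and 19.0% lower. The higher one was DFR (log2 3.01 ± 0.65, adjusted p = 0.00025 in edgeR), with 33 reads in all in hy5-215 and 4 in Col-0. CHS stood at 2.40 ± 0.475 CPM in hy5-215, against 11.3 ± 2.39 CPM in Col-0 (log2 -2.23, adjusted p = 4.1e-06), and PHR1, a photolyase, fell by 1.75 on the log2 scale, UVR3 by 0.98, SIG5 by 0.75 and CRY3 by 0.61. In vil1-1, 1 target was higher and 0 lower at ZT0, and 1 was higher and 7 lower at ZT6, beside the 9.97% and 21.0% of all genes called. Of the 45 partner and target genes, 13 overlap an annotated neighbour, among them SPA3, SPA4, BBX24, BBX25, BES1, MYB73, CO, DDB1B, CHS, PHR1 and GPX7. Among the tissue markers, RCA, PYK10, CASP1 and OLE1 overlap one too. All these counts may hold reads of the neighbour, as no source used here gives the strand setting of the counting.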

How the data were processed

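Libraries were made from 1 µg of total seedling RNA with a strand-marking NEBNext kit, per the labels' protocols. The authors deposited 27 tables of raw read counts, 1 per library, each with 32678 genes and 5 lines naming no gene. The tools were STAR, FastQC and edgeR and the build TAIR10, per the submitters' processing notes, which give no versions. How the counting treated strand is not given in the sources used. Reads in genes made up 90.8 to 96.2% of a table, and the 5 lines naming no gene, which hold the rest, stayed out of library sizes and tests.

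The analysis used edgeR 4.0.16 and limma 3.58.1 under R 4.3.3. Libraries held 19737975 to 33562745 reads in genes. The filter filterByExpr over the 9 groups kept 21448 genes, TMM scaled the libraries, and a robust quasi-likelihood fit of 9 group means, with 18 residual degrees of freedom, yielded log2 fold changes and their standard errors (SE). Benjamini-Hochberg adjustment ran over all kept genes of each comparison at 0.05. The fit was also run on simulated counts with few changed genes, in cop1-4 at ZT0 only. That run cannot check the scaling between groups in which most genes were called. CPM are TMM-scaled, and intervals are at 95%. DESeq2 1.42.0, its size factors, no filter, the compared groups alone, a replicate block and leaving out each library were the alternatives. Ratios within libraries were compared by exact permutation.

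Gene models and promoters came from RefSeq TAIR10.1, whose name differs from the build the submitters give. It was matched by identifier, for 31912 of the genes. Proteins of RUP1 and RUP2 were aligned with Biopython 1.88. Named genes were UVR8, RUP1, RUP2, COP1, HY5 and CHS, up to 4 called genes per list on each side with the smallest p, and the 5 most like each of UVR8, RUP1 and RUP2. Members and lists were chosen with earlier results of these data known.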

Additional observations from a re-analysis of the deposited data

Results flagged for a closer look

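The day change of RUP2 differed between lines by the test of the difference itself. The change from ZT0 to ZT6 in cop1-4 minus that in Col-0 was log2 -1.66 ± 0.13 (edgeR, adjusted p = 4.1e-14), with all 3 cop1-4 libraries above all 3 Col-0 libraries at ZT0 and overlapping ranges at ZT6. In vil1-1 cop1-4 minus Col-0 it was log2 -1.73 ± 0.13 (adjusted p = 5.1e-15). Both tests share the Col-0 libraries.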

How the results depend on the processing

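Of 66 results for UVR8, RUP1 and RUP2 (22 comparisons each), none that passed the threshold was lost or changed sign under any alternative test. Library sizes without TMM were applied to levels only, not to these tests. RUP2 in cop1-4 by time ranged from -1.75 to -1.53 on the log2 scale and in vil1-1 cop1-4 by time from -1.81 to -1.64. RUP1 and RUP2 in cop1-4 against Col-0 at ZT0 ranged from 2.30 to 2.61 and from 1.70 to 1.82, and RUP2 in hy5-215 from -0.68 to -0.61. Without the filter on low counts all 66 kept their call.

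Some results passed the threshold only under an alternative, and the cause was not tested. DESeq2 size factors gave 0.25 for RUP2 in vil1-1 cop1-4 against Col-0 at ZT6, 0.20 for UVR8 in cop1-4 by time and -0.20 for UVR8 in vil1-1 by cop1-4 at ZT6. The DESeq2 Wald test gave 0.25, 0.20 and -0.20 for these, 0.12 for UVR8 and 0.54 for RUP1 in vil1-1 against Col-0 at ZT6. A fit of the compared groups alone gave 0.12 and 0.54 for the same pair.

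Fitting the compared groups alone also moved counts of called genes, to 2395 for vil1-1 cop1-4 against cop1-4 at ZT6 (3827 with all groups, 57% of them higher, against 67.6% in the smaller fit) and to 1111 for vil1-1 by time (471 with all groups). For vil1-1 by time within cop1-4 the share of higher calls was 47.7%, against 59.3% with all groups.

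Leaving out 1 library at a time gave 2339 to 3876 called genes for vil1-1 cop1-4 against cop1-4 at ZT6 and 244 to 593 for vil1-1 by time. RUP1 ranged from -0.68 to -0.28 in cop1-4 by time and from 0.37 to 0.67 in vil1-1 against Col-0 at ZT6. RUP2 ranged from 0.13 to 0.30 in vil1-1 cop1-4 against Col-0 at ZT6 and from -0.02 to 0.07 in vil1-1 against Col-0 at ZT0. UVR8 ranged from 0.12 to 0.25 in cop1-4 by time, from -0.23 to -0.16 in vil1-1 by cop1-4 at ZT6 (past the threshold without the first cop1-4 or the first vil1-1 cop1-4 library at ZT6), from -0.02 to 0.05 in vil1-1 against Col-0 at ZT0 and from -0.05 to 0.01 in vil1-1 cop1-4 against cop1-4 at ZT0. The sign changes among these were of values near 0 that never passed: UVR8 in vil1-1 at ZT0 gave -0.00 and -0.02, RUP2 in vil1-1 at ZT0 gave -0.02, and UVR8 in vil1-1 cop1-4 against cop1-4 at ZT0 gave 0.01.

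The replicate numbers do not pair the libraries: deviations of same-numbered libraries correlated at a mean of -0.00 (-0.08 to 0.09), and 8 of 27 libraries were closest to their own number. A fit with the replicate block left 65 of 66 results on their side of the threshold and gave 0.54 (edgeR, adjusted p = 0.048) for RUP1 in vil1-1 against Col-0 at ZT6. No count of called genes moved by over 1.5 times under the block. Library sizes without TMM gave levels at 0.787 to 1.19 of those printed, and DESeq2 size factors 0.984 to 1.02. Without TMM, UVR8 at ZT0 read 98.8 CPM in cop1-4 and 98.4 CPM in vil1-1 cop1-4. It read 102 CPM in hy5-215 and 120 CPM in both Col-0 and vil1-1. Without TMM, both lines with cop1-4 thus lay below Col-0, vil1-1 and hy5-215 at ZT0, opposite to the TMM-scaled order. The hy5-215 group lay below Col-0 on both scales. Depth limits RUP1 and RUP2 most at ZT6, where single libraries held as few as 90 and 119 reads.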
